A study of Mus musculus with 71 samples.

Results

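The 9 genes described here are Fgfr1, Egr1, Etv4, Etv5, Dusp4, Dusp6, Spry2, Spry4 and Spred1. Fgfr1 encodes a receptor for fibroblast growth factor (FGF), and the others respond to FGF signalling through the kinase ERK or feed back on it. The 9 genes were chosen by name. All 9 were found among 21527 genes and passed the filter on low read counts, which left 12659 genes. Male mouse embryonic stem cells (mESC) of one line were labelled with 100 µM 4-thiouridine (s4U) for 24 h, washed and given fresh medium with an excess of uridine, and RNA was collected after 0, 1, 1.5, 2.3, 3.5, 5.3, 8 and 12 h of this chase. Either 20 µM STM2457, an inhibitor of the m6A methyltransferase Mettl3, or its solvent DMSO at 0.2% was present from 6 h ahead of the chase to its end. Each treatment had 4 libraries at each time point, apart from 3 for STM2457 at 3.5 h, and 4 libraries from cells without s4U, which made 71 libraries in 18 groups. The hours of treatment of the unlabelled libraries are not given in the sources used here. All groups grew in 2i/LIF medium, with 1 µM PD0325901, 3 µM CHIR99021 and 10 ng/ml LIF. PD0325901 inhibits MEK, the kinase that activates ERK, so the pathway was measured under its inhibition in DMSO and STM2457 alike, and no library without the inhibitor was used here.

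FGF binds receptors such as FGFR1, which signal through RAS, RAF and MEK to ERK, and ERK induces an immediate-early gene such as Egr1 and the ETS factors Etv4 and Etv5. The pathway also switches on its own brakes: the phosphatases DUSP4 and DUSP6 remove the activating phosphates from ERK, and the Sprouty and Spred proteins restrain the steps around RAS and RAF. In mESC, FGF4 signalling through ERK moves cells out of the naive state, and MEK inhibition is used to hold them in it. Many transcripts of this kind are short-lived, and AU-rich pentamers in the 3′ UTR are a known feature of unstable messages.

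The sequence element that is most often tied to such instability, ATTTA, was looked up in the longest annotated 3′ UTR of each gene (GENCODE M21, GRCm38, sense strand, overlapping matches counted). One window of 29 bases is shown for 6 of the genes, centred on the first ATTTA or, where a window holds more than 1, on the one with most. The windows lie at chr8:25574538-25574566 on the plus strand for Fgfr1, chr16:22382675-22382703 on the minus strand for Etv5, chr8:34819046-34819074 on the plus strand for Dusp4, chr10:99267420-99267448 on the plus strand for Dusp6, chr14:105892092-105892120 on the minus strand for Spry2 and chr2:117179567-117179595 on the plus strand for Spred1. Capitals mark ATTTA, and each line runs 5′ to 3′ on the strand of the gene.
Fgfr1: tcttgagtatatATTTAcatgtcttttta
Etv5: tgtagttttggtATTTAaagcaaaaacaa
Dusp4: ttgcaggtagaaATTTAcctcattattat
Dusp6: ttttgagctggaATTTAttataagaatgt
Spry2: agtgtaaagaatATTTAtttgaagtttta
Spred1: ttttaagaaagcATTTAtATTTAtatgac

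The Spred1 window held 2 pentamers that share no base, and each of the other windows held 1. Over the whole 3′ UTR, Spred1 had 12 matches in 4330 bases, or 2.77 per kb, and Etv4 had 0 in 624 bases. Between them were Spry2 with 2.34 per kb, Etv5 with 2.31, Spry4 with 1.97, Dusp4 with 1.8, Fgfr1 with 1.67, Egr1 with 1.64 and Dusp6 with 0.84. The median of 7261 transcripts with a measured half-life was 1.28 per kb, and 71.6% of them had at least 1 match. GGACT, a common form of the m6A consensus, occurred 4 times in the Etv5 3′ UTR (1.85 per kb) and once in that of Etv4 (1.6 per kb), against a median of 0.78 per kb over the same transcripts. Fgfr1 had 0 matches, and 67.9% of the transcripts had at least 1. These letters describe the annotated sequence and are not sites shown to be bound or methylated.

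The libraries held 4539726 to 7368244 counted reads, with a median of 5726508, and were made from the 3′ ends of mRNAs. All levels below are CPM, reads scaled to a common library total. TMM factors were applied, apart from the cell type markers, which were scaled to total reads alone. Values are given for libraries 1 to 4 of a group in that order. Where groups are said not to overlap, or means to lie on the same side at every time point, this describes the gene alone. The share of all genes for which the same holds was not counted. The stem cell markers summed to 3291 to 4696 CPM in DMSO and 3597 to 4525 in STM2457, with all 7 of the markers used at a median of at least 1. Sox2, also planned as a marker, was not among the genes counted. Feeder fibroblast markers summed to 4.09 to 21.2 in DMSO and 6.36 to 24.1 in STM2457. Of these, Thy1 had a median of 10.9 (3.41 to 21.9), Col1a1 one of 0.16, and Col1a2, Col3a1, Dcn and Lum one of 0. Primitive endoderm markers summed to 1.15 to 12.8 and 1.86 to 9.66, and those of primed epiblast and mesoderm to 9.23 to 94.4 and 11.4 to 66.3. Their part in the results below was not tested. In bulk libraries of this kind, fewer cells with a transcript and less RNA per cell cannot be told apart. The paper describes its replicates as biologically independent. The labels do not say whether libraries of a group came from separate cultures, so p-values measure the spread between these libraries.

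A library axis was taken from the first principal component of the deviations from the group means. This component held 26% of the variance within groups over 8276 genes. Libraries were scored on it by levels centred on the mean of all libraries, so differences between groups also enter the score. A set of 12 libraries stood apart, with scores below -20. It comprised 9 DMSO and 3 STM2457 libraries, 6 of them at 1 h of chase, where there were 8 in all. DMSO libraries 3 and 4 at 5.3 h, 2 and 4 at 1.5 h, 1 at 0 h and 4 without s4U made up the rest. Gene loadings on this axis had a Spearman correlation of 0.448 with the GC content of the transcripts across 8098 genes, a description over genes that share libraries. The transcripts of Etv4, Egr1, Dusp4 and Fgfr1 had a GC content of 55.4% to 58.7%, against a median of 49.2%, Spred1 had 41.2%, Spry2 46.2%, Dusp6 49%, Spry4 51.2% and Etv5 51.8%. Tests on the read counts of the 9 genes were therefore run also with the score as a covariate and without the 12 libraries, and each call lost or gained in either setting is stated with the gene. The covariate can take up part of a difference between treatments or times. Without the 12 libraries, only DMSO library 1 and STM2457 library 3 remained at 1 h. Both settings were chosen after the data had been seen.

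Reads of the genes without s4U gave no call between treatments. In these libraries 0 of the 9 genes passed edgeR's quasi-likelihood test at an adjusted p of 0.01, where 2.58% of all genes did. Etv5 had 344, 316, 332 and 263 CPM in DMSO and 474, 438, 380 and 372 in STM2457, so all STM2457 libraries were above all DMSO libraries. The log2 difference was 0.41 ± 0.14 (SE, adjusted p = 0.0791, edgeR). Dusp4 had 5.29, 5.55, 8.46 and 5.86 in DMSO and 13.7, 9, 9.35 and 13.9 in STM2457, again without overlap, with a log2 difference of 0.87 ± 0.38 (adjusted p = 0.181, edgeR). Labelling itself moved none of the 9 genes past the test, with 0.513% of all genes called at 0 h against unlabelled cells in DMSO and 0.521% in STM2457. At an unadjusted p under 0.05, 2 of the 9 genes passed for STM2457 without s4U and 1 for each of the label comparisons. Of all 12659 genes, 2557 passed for STM2457 without s4U, 1445 for the label in DMSO and 1578 for the label in STM2457. The counts of calls at an adjusted p of 0.01 stayed at 0 with the axis as a covariate and without the 12 libraries.

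**Figure D1:**
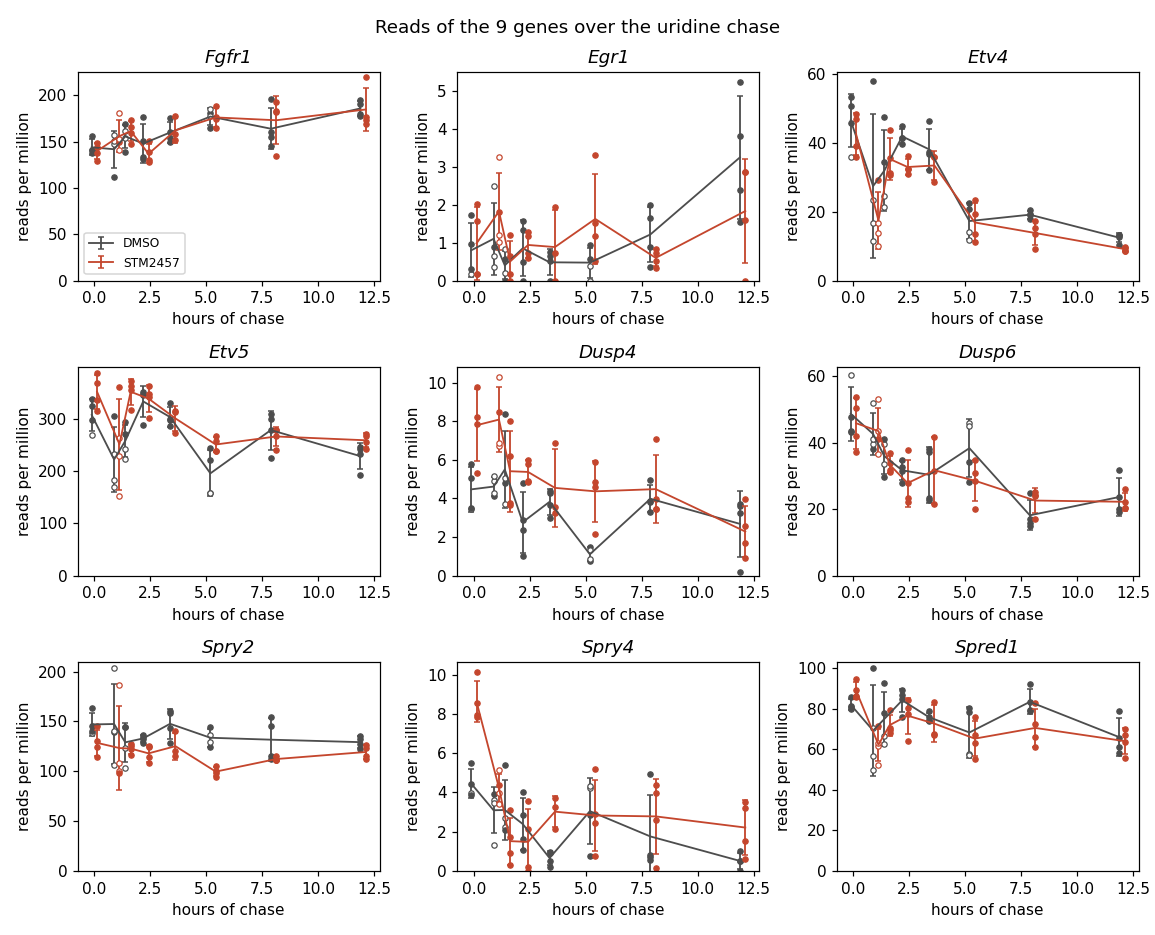
CPM (the reads scaled to a common library total) against hours of chase for each of the 9 genes, in DMSO (grey) and STM2457 (red). Points are libraries, lines and bars are means and SD of 4 libraries (3 for STM2457 at 3.5 h), and open points are libraries among the 12 that stood apart. Etv4 and Dusp6 end the chase well below their start in both treatments, while the Fgfr1 means end above theirs.

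The chase itself, in medium that kept the MEK inhibitor, was accompanied by changes in 5 of the 9 genes in DMSO and 4 in STM2457. A test of any change over the 8 time points called Etv4, Etv5, Dusp4, Dusp6 and Spry4 in DMSO and Etv4, Etv5, Dusp4 and Dusp6 in STM2457 (edgeR's quasi-likelihood F test). The shares of 55.6% and 44.4% stood beside 30.1% and 19.1% of all genes. From 0 to 12 h, 3 of the 9 genes fell in DMSO (Etv4, Dusp6 and Spry4), where 13% of all genes were called, and 3 fell in STM2457 (Etv4, Dusp6 and Dusp4), where 4.72% were. Of all 12659 genes, 1038 fell and 613 rose in DMSO, and 384 fell and 214 rose in STM2457. None of the 9 was called as rising, in DMSO or in STM2457. All 6 falls among the 9 genes kept their call with the axis as a covariate and without the 12 libraries. Over the whole chase Etv4, Etv5 and Dusp6 kept theirs in both settings and both treatments, and those of Dusp4 and Spry4 were lost in at least 1 setting.

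Etv4, an ETS transcription factor induced by ERK, fell in both treatments. In DMSO it had 36.1, 50.8, 53.5 and 45.9 CPM at 0 h and 13.3, 12.8, 10.4 and 13.4 at 12 h. In STM2457 it had 39.1, 36.02, 48.5 and 46.98 at 0 h and 9.91, 8.62, 8.62 and 9.48 at 12 h. No library at 12 h reached any library at 0 h, and the log2 changes were -1.90 ± 0.27 in DMSO (adjusted p = 1.17e-07, edgeR) and -2.22 ± 0.28 in STM2457 (adjusted p = 2.15e-08, edgeR). With the axis as a covariate they were -2.42 and -2.41, and without the 12 libraries -2.03 and -2.20. At 1 h the DMSO libraries ran from 11.6 to 58.2, and the 3 of them that stood apart held the 3 lowest values, 11.6, 23.4 and 16.8. The mean was 38.2 ± 5.94 (SD, n = 4) in DMSO at 3.5 h and 17.3 ± 5.16 at 5.3 h, and in STM2457 33.5 ± 4.11 (n = 3) and 16.9 ± 5.54 (n = 4).

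The related factor Etv5 changed over the chase in both treatments, but its step from 0 to 12 h was smaller. Its DMSO libraries had 269.9, 298, 337 and 326 CPM at 0 h and 234, 193, 247 and 242 at 12 h, without overlap. The log2 change from 0 to 12 h was -0.43 ± 0.14 in DMSO (adjusted p = 0.0239, edgeR) and -0.44 ± 0.14 in STM2457 (adjusted p = 0.0367, edgeR). With the axis as a covariate the 2 changes were -0.70 and -0.55, and both passed the test (adjusted p = 3.2e-10 and 3.47e-07, edgeR). Without the 12 libraries they were -0.51 and -0.43, again both past it (adjusted p = 1.65e-05 and 0.000177, edgeR). Of the Etv5 reads, 45.01% mapped to more than 1 place, against at most 0.402% for each of the other 8 genes, so copies elsewhere in the genome can add to its count. With those reads taken off the changes were -0.27 in each treatment (adjusted p = 0.412 and 0.533, edgeR). The test over the whole chase then still called Etv5 in DMSO (adjusted p = 0.000166) but not in STM2457 (adjusted p = 0.0253, edgeR), where the call was also lost without STM2457 replicate 1, 2 or 4.

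Dusp6, the cytoplasmic ERK phosphatase, had 60.5, 47.8, 43.2 and 43.5 CPM at 0 h in DMSO and 20.1, 23.6, 31.8 and 19.3 at 12 h. In STM2457 it had 50.5, 37.3, 53.9 and 42 at 0 h and 20.5, 20.4, 26 and 22.2 at 12 h. The groups did not overlap, and the log2 changes of -1.04 ± 0.19 in each treatment were alike to 2 decimals (adjusted p = 2.65e-05 and 8.17e-05, edgeR). With the axis as a covariate they were -0.89 and -0.99, and without the 12 libraries -0.94 and -1.03, all past the test. Dusp4, the nuclear phosphatase of the pair, was counted far less, with 2031 reads over all 71 libraries. It had 5.299, 7.85, 9.78 and 8.24 CPM at 0 h in STM2457 and 4.00, 2.55, 0.907 and 1.69 at 12 h, a log2 change of -1.76 ± 0.41 (adjusted p = 0.00224, edgeR). That call was lost without STM2457 replicate 2, 3 or 4, at -1.81, -1.36 and -1.61 (adjusted p = 0.0212, 0.0735 and 0.0322, edgeR). In DMSO it had 3.47, 5.08, 5.80 and 3.53 at 0 h and 3.22, 3.62, 0.171 and 3.72 at 12 h, with a change of -0.74 ± 0.41 (adjusted p = 0.197, edgeR). Without the 12 libraries the test over the whole chase no longer called Dusp4 in DMSO (adjusted p = 0.0713) or in STM2457 (adjusted p = 0.0875, edgeR). The call was kept with the axis as a covariate in DMSO (adjusted p = 0.00327) and lost in STM2457 (adjusted p = 0.0215, edgeR). The DMSO call was lost also without DMSO replicate 2 or 3. The STM2457 call was lost also by total reads, with no filter on low counts, with the replicate number as a block, and without DMSO replicate 1, 2 or 4 or STM2457 replicate 2, 3 or 4.

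Among the Sprouty and Spred genes, Spry4 fell in DMSO on very few reads. Its 4 DMSO libraries held 23, 28, 38 and 24 reads at 0 h (3.99, 4.45, 5.51 and 3.85 CPM) and 5, 3, 0 and 3 reads at 12 h. The log2 change was -3.11 ± 0.76 (adjusted p = 0.00148, edgeR), with a 95% interval from -4.60 to -1.62, and it was -2.94 with the axis as a covariate and -3.18 without the 12 libraries. The call was lost without DMSO replicate 2, at -3.15 (adjusted p = 0.0102, edgeR), and without replicate 3, the library with no read at 12 h, at -2.58 (adjusted p = 0.0258, edgeR). Over the whole DMSO chase Spry4 kept its call without the 12 libraries (adjusted p = 0.00516, edgeR) and lost it with the axis (adjusted p = 0.0172, edgeR) and without DMSO replicate 2, 3 or 4. In STM2457 the libraries held 48, 44, 49 and 65 reads at 0 h and 22, 20, 4 and 9 at 12 h, with a change of -1.955 ± 0.64 (adjusted p = 0.039, edgeR). Spry2 had changes of -0.19 ± 0.13 in DMSO and -0.11 ± 0.13 in STM2457 (adjusted p = 0.327 and 0.696, edgeR), the latter turning to 0.01 when libraries were scaled to total reads alone. Spred1 had -0.31 ± 0.14 and -0.47 ± 0.14 (adjusted p = 0.102 and 0.0206, edgeR). With the axis as a covariate Spred1 passed in both, at -0.52 and -0.56 (adjusted p = 0.000408 and 0.000143, edgeR). Without the 12 libraries it had -0.34 in DMSO, short of the threshold (adjusted p = 0.0328, edgeR), and -0.46 in STM2457, past it (adjusted p = 0.00188, edgeR). Over the whole chase Spred1 gained a call in STM2457 with the axis (adjusted p = 0.00366, edgeR).

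Fgfr1, the receptor, and Egr1, the immediate-early factor, had higher values at 12 h than at 0 h but did not pass the test. Fgfr1 had 140.4, 140.4, 138 and 156 CPM at 0 h in DMSO and 180.1, 178, 190.3 and 195 at 12 h, and the groups did not overlap. The log2 differences were 0.37 ± 0.12 in DMSO and 0.40 ± 0.12 in STM2457 (adjusted p = 0.014 and 0.0152, edgeR). They were 0.43 in both treatments with the axis as a covariate, and passed (adjusted p = 0.00117 and 0.00145, edgeR). Without the 12 libraries Fgfr1 missed the threshold in DMSO at 0.34 (adjusted p = 0.0261, edgeR) and passed in STM2457 at 0.42 (adjusted p = 0.00304, edgeR). The test over the whole chase called it with the axis in both treatments (adjusted p = 0.00276 and 0.00143, edgeR) and without the 12 libraries in STM2457 (adjusted p = 0.00408, edgeR). Scaling to total reads also carried both past the test, at 0.51 and 0.52, but it moved the median of all genes by 0.178 in DMSO and 0.118 in STM2457, where TMM gave 0.04 and -0.0013. Egr1 had 464 reads in all libraries together, and 8 libraries had none. Its DMSO libraries held 1, 2, 12 and 6 reads at 0 h and 19, 9, 14 and 31 at 12 h, a log2 difference of 1.98 ± 0.97 (adjusted p = 0.135, edgeR) that this depth did not separate from the spread between libraries.

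STM2457 went with higher Dusp4 and Etv5 and lower Spry2 when the difference from DMSO was averaged over the 8 time points. These 3 of the 9 genes passed the test, or 33.3%, beside 26.5% of all genes (1763 higher and 1594 lower in STM2457), so the share among the 9 was close to the background. At an unadjusted p under 0.05, 5 of the 9 passed, beside 5629 of all 12659 genes. The median log2 difference of all genes was -0.009. The course over the chase did not differ detectably between treatments for any of the 9 genes. The interaction test of edgeR called 0 of them, where it called 1.78% of all genes, and DESeq2 called 0. In edgeR's test 2 of the 9 had an unadjusted p under 0.05, beside 2276 of all 12659 genes. These were Dusp4 and Spry4, chosen for mention after their values were seen.

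Of the time points taken singly, only the one at 5.3 h gave a call, for Dusp4, where 4.45% of all genes were called. The shares of all genes called at the other times were 1.68% at 0 h, 1.53% at 1 h, 8.18% at 1.5 h, 1.61% at 2.3 h, 1.3% at 3.5 h, 2.34% at 8 h and 5.41% at 12 h. At 5.3 h the DMSO libraries held 8, 4, 4 and 7 Dusp4 reads (1.51, 0.761, 0.849 and 1.32 CPM) and the STM2457 libraries 11, 28, 34 and 27 (2.14, 4.87, 5.90 and 4.57 CPM). All STM2457 libraries were above all DMSO libraries, and the log2 difference was 1.95 ± 0.46 (adjusted p = 0.00267, edgeR). DMSO libraries 3 and 4 at this time were among the 12 that stood apart. The difference was 1.82 with the axis as a covariate (adjusted p = 0.0156, edgeR) and 1.93 without the 12 libraries (adjusted p = 0.0802, edgeR), so its size was kept and the call was not. The call was also lost without DMSO replicate 2 or 4 and without STM2457 replicate 2, 3 or 4, where differences were 1.77 to 2.05 and adjusted p-values 0.0111 to 0.0161.

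Averaged over the chase, Dusp4 was 0.58 ± 0.15 higher in STM2457 on the log2 scale (95% interval 0.30 to 0.87, adjusted p = 0.000923, edgeR). The groups did not overlap at 1, 2.3 and 5.3 h, and at 0 h they overlapped narrowly, with 3.47 to 5.80 CPM in DMSO and 5.299 to 9.78 in STM2457. At 1.5 h the means were 5.50 ± 2.02 and 5.41 ± 2.09 (SD, n = 4), and at 12 h they were 2.69 ± 1.69 and 2.29 ± 1.32, so the difference was not present at every time. It was 0.55 with the axis as a covariate (adjusted p = 0.00381, edgeR) and 0.56 without the 12 libraries, where it missed the threshold (adjusted p = 0.0243, edgeR).

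Spry2, which restrains signalling from receptor tyrosine kinases, was lower in STM2457 by a small amount. The mean log2 difference was -0.21 ± 0.05 (95% interval -0.31 to -0.12, adjusted p = 0.000191, edgeR), and the STM2457 mean lay below the DMSO mean at 8 of 8 time points, by log2 differences from -0.07 at 1.5 h to -0.42 at 5.3 h. At 5.3 h DMSO had 144, 124, 129 and 137 CPM and STM2457 had 100.4, 98.7, 105 and 94.1, so the groups did not overlap, and the same held at 2.3 h. At 1 h they overlapped widely, with 107 to 203 and 98.6 to 186. In cells without s4U the means were 122 ± 15.0 and 123 ± 9.07, a log2 difference of 0.0022 ± 0.13 (adjusted p = 0.998, edgeR). Spry2 kept its call with the axis as a covariate (-0.19, adjusted p = 0.000151, edgeR) and without the 12 libraries (-0.27, adjusted p = 1.12e-07, edgeR).

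Etv5 was 0.16 ± 0.05 higher in STM2457 (95% interval 0.06 to 0.26, adjusted p = 0.00864, edgeR), a call close to the threshold that was lost in several settings. At 1.5 h DMSO had 295, 223, 271 and 243 CPM and STM2457 had 317, 373, 355 and 364, the only time point without overlap. With the axis as a covariate the difference was 0.07 (adjusted p = 0.0912, edgeR) and without the 12 libraries 0.11 (adjusted p = 0.0225, edgeR). The call was also lost with RLE size factors (adjusted p = 0.0111, edgeR), by total reads (adjusted p = 0.0125, edgeR), and without DMSO replicate 2, 3 or 4 or STM2457 replicate 2 or 3, at 0.13 to 0.18. With multimapping reads taken off it was 0.25 (adjusted p = 0.00993, edgeR).

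Etv4 and Spred1 gained a call in those settings. Etv4 had a log2 difference of -0.26 ± 0.09 (adjusted p = 0.0219, edgeR), which missed the threshold. The STM2457 libraries were below all DMSO libraries at 2.3, 8 and 12 h, a description without the share of all genes beside it. At 12 h these were 9.91, 8.62, 8.62 and 9.48 CPM in STM2457 against 13.3, 12.8, 10.4 and 13.4 in DMSO. With the axis as a covariate the difference was -0.42 (adjusted p = 1.19e-08, edgeR) and without the 12 libraries -0.41 (adjusted p = 5.27e-06, edgeR). Spred1 had -0.08 ± 0.05 (adjusted p = 0.219, edgeR), then -0.14 (adjusted p = 0.00392, edgeR) and -0.18 (adjusted p = 0.00283, edgeR) in those 2 settings. Across the 9 genes, then, Spry2 was called lower in the main fit and in those 2 settings, and Etv4 and Spred1 only in the 2 settings.

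**Figure D2:**
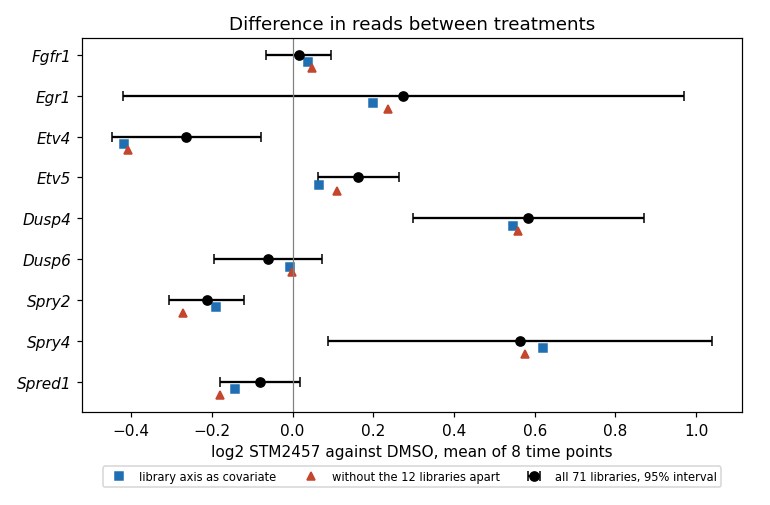
Log2 difference in reads between STM2457 and DMSO, averaged over the 8 time points, for the 9 genes. Black points with bars are estimates and 95% intervals from all 71 libraries, blue squares are estimates with the library axis as a covariate, and red triangles are estimates without the 12 libraries that stood apart. Dusp4 lies at 0.58, 0.55 and 0.56 in the 3 settings, and Etv4 moves from -0.26 to -0.42 and -0.41.

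For the remaining genes the treatments were not told apart. Spry4 had a log2 difference of 0.56 ± 0.24 with an interval from 0.09 to 1.04 (adjusted p = 0.0603, edgeR). At 0 h its libraries had 3.99, 4.45, 5.51 and 3.85 CPM in DMSO and 7.95, 7.85, 8.55 and 10.1 in STM2457, and at 3.5 h 0.192, 0.515, 0.978 and 0.930 in DMSO and 3.70, 2.13 and 3.23 in STM2457. The groups did not overlap at those 2 times, while at 1.5 h the mean was lower in STM2457, at 1.52 ± 1.202 against 3.10 ± 1.55. Dusp6 had -0.06 ± 0.07 (interval -0.19 to 0.07, adjusted p = 0.523, edgeR) and Fgfr1 0.02 ± 0.04 (interval -0.07 to 0.10, adjusted p = 0.815, edgeR), the latter changing sign when libraries were scaled to total reads. For both, the groups overlapped at all 8 time points. Egr1 had 0.27 ± 0.35, with an interval from -0.42 to 0.97 (adjusted p = 0.588, edgeR).

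The T-to-C conversions that s4U leaves in reads were followed through the chase to see how fast labelled transcripts were lost. Over all genes, 1.37% ± 0.067 (SD, n = 4) of covered T positions read as C at 0 h in DMSO and 1.28% ± 0.073 in STM2457, and 0.0814% and 0.0829% in unlabelled cells. Dusp6 and Spry2 lost their label fastest among the 6 genes with a half-life by rate within the limits. The conversion rate of Dusp6 in DMSO was 1.27% ± 0.284 at 0 h, 0.693% ± 0.339 at 1.5 h, 0.528% ± 0.239 at 2.3 h and 0.272% ± 0.056 at 3.5 h (SD, n = 4), against 0.2001% ± 0.031 without s4U. After subtraction of that background, 6.72% of the rate at 0 h was left at 3.5 h. Spry2 went from 1.36% ± 0.158 at 0 h to 0.608% ± 0.079 at 2.3 h and 0.439% ± 0.050 at 3.5 h, which left 27.7% of the start, and 5.40% at 5.3 h. Spry2 kept less of its rate than Dusp6 at 1 and 1.5 h (74.4% and 40.7% against 88.97% and 46.2%), and Dusp6 kept less at 2.3 and 3.5 h.

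Etv5, Spred1 and Fgfr1 kept their label longer and then lost most of it between 3.5 and 5.3 h. In DMSO, Etv5 held 51.4% of its 0 h rate at 3.5 h and 7.47% at 5.3 h, Spred1 54.8% and then 0.949%, and Fgfr1 61.95% and then 12.7%. Multimapping reads were not taken off the Etv5 rates. The rate over all genes also stepped down between these times, from 1.01% to 0.534% in DMSO and from 0.927% to 0.526% in STM2457. This was a smaller fall than that of the 3 genes, and its part in their courses was not tested. Etv4 kept 56.96% of its rate at 8 h and 22.04% at 12 h. Since its reads fell over the same hours, its labelled amount, as conversions scaled by library size, was 22.7% of the start at 8 h and 6.19% at 12 h.

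**Figure D3:**
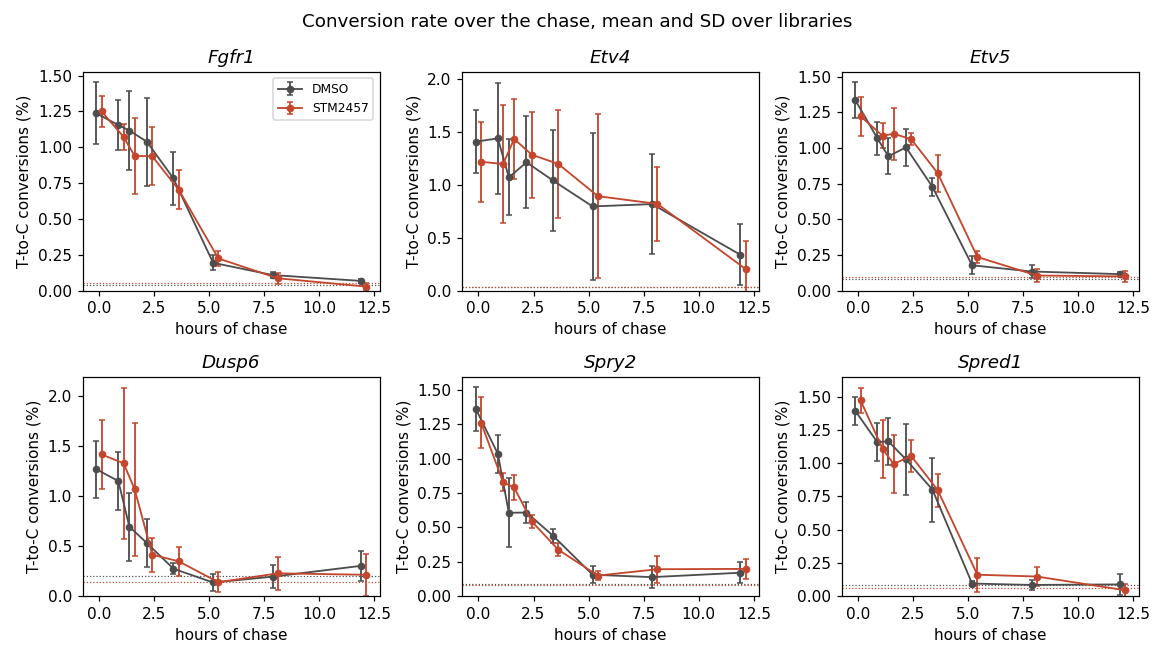
Conversion rate, as a percentage of covered T positions, against hours of chase for 6 of the genes, in DMSO (grey) and STM2457 (red), with mean and SD of 4 libraries (3 for STM2457 at 3.5 h). Dotted lines are means of the unlabelled libraries. Dusp6 and Spry2 fall from 0 h on, Fgfr1, Etv5 and Spred1 drop between 3.5 and 5.3 h, and Etv4 keeps most of its rate to 8 h.

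Half-lives from an exponential fit to these rates put Dusp6 and Spry2 among the short-lived transcripts of these cells. Dusp6 had a half-life of 1.44 h without and 1.75 h with STM2457, and Spry2 one of 1.64 h and 1.69 h, at percentiles 4.66 and 8.10 of 7363 transcripts in DMSO. The median transcript had 3.19 h in DMSO and 3.45 h in STM2457. Etv5 had 2.76 h and 3.45 h, Spred1 2.81 h and 2.66 h, and Fgfr1 3.53 h and 2.98 h, at percentiles 36.9, 38.7 and 58.6 in DMSO. Of the Etv5 reads, 45.01% mapped to more than 1 place, and no setting took such reads off the conversions. The rates and half-lives of Etv5, and the tests on them, can therefore include copies elsewhere in the genome. In the order of these half-lives, the series of neighbouring genes overlapped throughout. Because the rates of Etv5, Spred1 and Fgfr1 fell in a step, their half-lives sum up a course that a single exponential describes only roughly.

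Fitted in each of the 4 series of libraries with the same replicate number, Dusp6 half-lives were 1.34, 2.04, 1.31 and 1.30 h in DMSO and 1.51, 1.60, 1.46 and 2.67 h in STM2457. Those of Spry2 were 1.08, 1.58, 1.69 and 2.41 h in DMSO and 1.43, 1.64, 1.85 and 2.09 h in STM2457. Etv5 had 3.09, 3.08, 2.39 and 2.59 h in DMSO and 3.66, 2.89, 4.19 and 2.98 h in STM2457. Series 4 of STM2457 had no library at 3.5 h and was fitted to the other time points. The labels do not say whether the number links libraries over time, and each series was divided by its own 0 h library. The spread between series, and the tests on it, rest on this grouping. Treatments overlapped for all 3 genes, as they did for Spred1 (1.89 to 3.53 h and 2.07 to 3.09 h) and Fgfr1 (2.68 to 4.62 h and 2.35 to 3.58 h). Two-sided exact permutation tests over 4 against 4 series gave p = 0.429 for Dusp6, 0.771 for Spry2, 0.171 for Etv5, 0.629 for Spred1 and 0.229 for Fgfr1, where 0.0286 is the smallest such a test can give. The log2 differences were 0.26 ± 0.28, 0.09 ± 0.29, 0.29 ± 0.23, -0.12 ± 0.27 and -0.26 ± 0.26 in the same order, with adjusted p-values of 0.833 to 0.966 by limma. Limma called 0 of 5741 transcripts (0%), and 405 had an unadjusted p under 0.05. In simulated data this test recovered 0 of 200 known half-life changes of 2-fold and 152 of 200 of 4-fold. The differences and p-values above do not show that half-lives were alike.

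**Figure D4:**
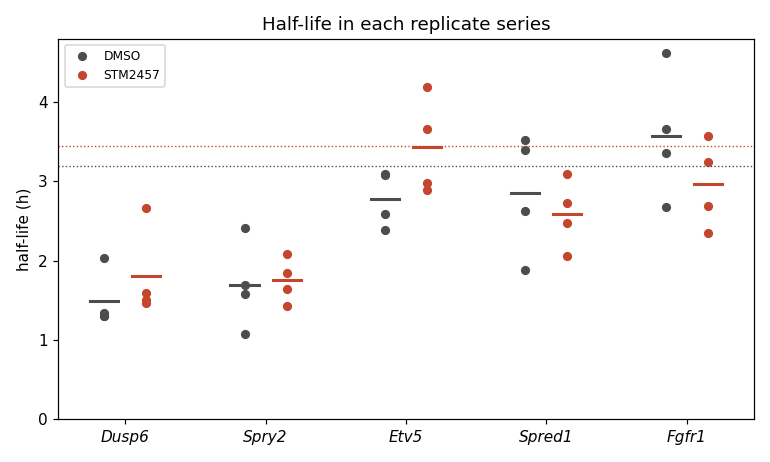
Half-life in hours in each of the 4 replicate series for the 5 genes with a value in every series, in DMSO (grey) and STM2457 (red). A series joins libraries with the same replicate number, which the labels do not say are linked over time. Bars are means of the series and dotted lines are the medians of all transcripts, 3.19 h in DMSO and 3.45 h in STM2457. Dusp6 and Spry2 lie below both lines in every series, and treatments overlap for each gene.

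By rate, Etv4 had the longest half-life of the 6, at 7.20 h in DMSO (percentile 94.5) and 10.7 h in STM2457, but the estimate was loose and depended on the measure. Single series ran from 2.88 to 18.6 h in DMSO and from 3.68 to 67.1 h in STM2457. The value of 67.1 h came from series 4, which had no library at 3.5 h. Both ranges passed the limit of 18 h, so Etv4 entered no test of half-lives. Taken from conversions scaled by library size in place of the rate per T position, its half-life came to 3.04 h and 4.11 h. By that measure Dusp6 had 1.19 h and 1.40 h, Spry2 1.55 h and 1.56 h, Etv5 2.47 h and 2.98 h, Spred1 2.58 h and 1.97 h and Fgfr1 3.73 h and 3.29 h, all closer to the values by rate. The longest of the 6 was then Fgfr1 in DMSO and Etv4 in STM2457. Without the 12 libraries the half-lives by rate were 6.02 h and 10.3 h for Etv4, 1.56 h and 1.53 h for Dusp6 and 1.42 h and 1.76 h for Spry2, so the order of the last 2 differed between settings and treatments.

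Conversions were also tested directly, as the drop from 0 h to the mean of the 7 later time points, STM2457 against DMSO, in edgeR with covered T positions as an offset. The log2 differences were -0.06 ± 0.35 for Dusp6, 0.13 ± 0.23 for Spry2, 0.26 ± 0.40 for Etv4, 0.19 ± 0.17 for Etv5, -0.07 ± 0.26 for Spred1 and -0.29 ± 0.25 for Fgfr1 (SE), with adjusted p-values from 0.84 to 1. The median of all genes was 0.08. The test called 0 of 9054 genes (0%), and 691 had an unadjusted p under 0.05. In simulated data it recovered 20 of 200 known half-life changes of 2-fold and 107 of 200 of 4-fold. The standard errors are of the size of the differences, so these values do not show that the treatments lost conversions at the same pace.

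Egr1, Dusp4 and Spry4 had no half-life by rate within the limits. For Dusp4 the fit gave 2.24 h and 3.42 h with residual standard errors of 0.326 and 0.56, over the limit of 0.3. Taken from conversions scaled by library size, its half-lives of 2.35 h and 2.64 h were just within that limit, with residual standard errors of 0.291 and 0.299. For Dusp4 in DMSO, 26 conversions in 1871 covered T positions at 0 h gave 1.39% (exact 95% binomial interval 0.910% to 2.03%), and at 12 h there were 0 in 921, with an upper bound of 0.3997%. In STM2457 it had 37 in 3087 at 0 h, or 1.199% (0.845% to 1.65%), and 0 in 1171 at 12 h, with an upper bound of 0.315%. Spry4 had 21 in 2998 at 0 h in DMSO, or 0.701% (0.434% to 1.07%), and 58 in 5366 in STM2457, or 1.08% (0.822% to 1.40%). Egr1 had 8 in 378 and 4 in 614, and at 12 h 0 in 1667 (upper bound 0.221%) and 0 in 1057 (upper bound 0.348%). These intervals cover counting error only.

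The rest of the pathway was read from lists of its genes by role, whose counts stand beside the 26.5% of all genes called between treatments. Of 11 tested FGF ligands and receptors, 3 were higher and 1 lower in STM2457 averaged over the chase, with a median log2 difference of 0.04. Fgf4, the main FGF ligand of mESC, was 0.52 ± 0.06 higher (adjusted p = 5.64e-11, edgeR), Fgfrl1 0.35 ± 0.10 (adjusted p = 0.00355) and Fgf15 0.80 ± 0.24 (adjusted p = 0.00517, edgeR). The last 2 lost the call without the 12 libraries, at 0.28 and 0.60 (adjusted p = 0.0537 and 0.109, edgeR). Of 22 genes of the relay from receptor to ERK, 2 were higher and 4 lower, with a median of -0.02. The phosphatase gene Ptpn11 had a log2 difference of -0.34 ± 0.05 (adjusted p = 7.14e-07) and the adaptor gene Frs2 0.39 ± 0.07 (adjusted p = 1.54e-05, edgeR).

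Among 12 tested feedback inhibitors other than the 9 genes, 2 were higher and 0 lower, with a median of 0.09. These were the phosphatase genes Dusp14, at 0.80 ± 0.07 (adjusted p = 1.74e-16, edgeR), and Dusp7, at 0.55 ± 0.06 (adjusted p = 8.45e-12, edgeR). Of all 4 lists they were also the only ones called in cells without s4U, at 0.97 and 0.73 (adjusted p = 0.000279 and 0.00339, edgeR). Spred2, the closest relative of Spred1 on the list, had 0.20 ± 0.07 and missed the threshold (adjusted p = 0.0144, edgeR). Of 18 tested immediate-early and ERK-induced genes, 2 were higher and 4 lower, with a median of -0.14. Klf2, a naive-state factor, was 0.64 ± 0.05 higher (adjusted p = 8.53e-18) and the survival gene Mcl1 0.29 ± 0.03 higher (adjusted p = 4.57e-11, edgeR), while Ier2 had -0.34 ± 0.05 (adjusted p = 7.51e-08, edgeR). Among the other genes of these lists that passed, named after their values were seen, were Grb2 at 0.13 among the higher ones and Fgf8 (-0.57), Rps6ka1 (-0.17), Jun (-0.36), Etv1 (-0.51) and Btg2 (-0.41) among the lower ones. Over the chase, the tests of any change called 2 and 1 of the ligands and receptors in DMSO and STM2457, 11 and 7 of the relay, 3 and 1 of the inhibitors and 6 and 6 of the immediate-early genes, beside 30.1% and 19.1% of all genes.

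The genes whose course was most like that of each of the 9 were looked up over the 16 labelled groups, by Pearson r of mean log2 levels, as a description. Lsm12 (r = 0.954), Igf2bp1 (0.932) and Phc1 (0.927) came nearest to Etv4, and Eif5a (0.954), Midn (0.949) and Gm50387 (0.935) to Etv5. Rsrc2 (0.917), Ckap2 (0.911) and Zfp384 (0.909) came nearest to Dusp6, and Mtmr14 (0.894) to Spry2, Rbbp4 (0.892) to Spred1 and Adgra3 (0.883) to Fgfr1. For the genes with few reads the nearest were Rbm43 (0.876) for Dusp4, Prss36 (0.855) for Egr1 and Lrriq4 (0.852) for Spry4. None of the 9 genes was among the 3 nearest of another, and the groups share the libraries that stood apart.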

How the data were processed

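SLAM-seq was performed by the authors on male mESC with QuantSeq 3′ libraries. They mapped reads with SLAM-DUNK to GRCm38.p6, allowing multimapping reads, masked variants called in merged unlabelled libraries, and summed per gene what fell on 3′ UTR windows kept from GENCODE M23. The submitters' processing notes name FastQC 0.11.8. The authors deposited, per gene and library, raw counts of reads, multimapping reads, covered T positions and T-to-C conversions. The deposited conversion rate is a fraction, equal to conversions over covered T positions, with no background subtracted. The deposited CPM column was only checked, since levels were computed from the counts. Groups and replicate numbers come from the labels and hours of chase from the study's methods.

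Read counts were tested with edgeR 4.0.16 (R 4.3.3; TMM, filterByExpr, quasi-likelihood, 18 groups in 1 fit) at a Benjamini-Hochberg adjusted p of 0.01 over all genes. For half-lives, rates were averaged per time point, the unlabelled mean was subtracted, and an exponential was fitted relative to 0 h. Limits were 0.67 to 18 h, a residual standard error of 0.3 and a mean T coverage of 100. Log2 half-lives were compared between treatments by limma 3.58.1, with a threshold of 0.05 on the adjusted p, and by two-sided exact permutation tests. Conversions were tested with edgeR with log covered T positions as offset. Scripts were tested on simulated data with known answers. In a first simulation the default fit for conversions recovered none of the known changes. After its p-values in the real data had also been seen, the simulation was given the observed variance, under which the fit that estimates the dispersion from the most abundant genes recovered more changes, and that fit was used. The default was kept as an added alternative, and both called 0 genes in the real data. Planned tests of conversions at single time points gave too many calls among unchanged genes there and were left out. The variance of conversions within groups was 3.17 to 5.15 times that of Poisson counts. Python 3.11.15, numpy 2.4.6, scipy 1.17.1, pandas 2.3.3 and matplotlib 3.10.9 were used for the rest, and DESeq2 1.42.0 as an alternative.

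The members, the gene lists and the tests were chosen with earlier results of these data known. All 9 members are named, and of each list the 3 genes with the smallest adjusted p between treatments over the chase, apart from results that are not reported here. The sources used here name no molecular identifiers, and no column of unknown sample was used. Of 105 pairs of libraries within groups, 0 were identical, and the lowest chi-square per degree of freedom was 2.82.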

Additional observations from a re-analysis of the deposited data

Results flagged for a closer look

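Of 163 groups of 4 values checked for a value far from the others of its group (a gap to the nearest value past Dixon's limit), 12 had one, where chance alone gives about 1 in 20. As levels in CPM, these were 0.458 for Egr1 without s4U in STM2457, 7.09 for Dusp4 at 8 h in STM2457, 0.171 for Dusp4 at 12 h in DMSO, 16.99 for Dusp6 at 8 h in STM2457, 186 for Spry2 at 1 h in STM2457, 115 for Spry2 at 8 h in STM2457, 4.94 for Spry4 at 8 h in DMSO, 289 for Etv5 at 2.3 h in DMSO, 156 for Fgfr1 at 0 h in DMSO and 219.9 for Fgfr1 at 12 h in STM2457. As half-lives, they were 2.04 h for Dusp6 in DMSO and 2.67 h for Dusp6 in STM2457, which are 1 of 4 series each. The value of 2.67 h came from series 4, which had no library at 3.5 h. The Spry2 library at 1 h was STM2457 replicate 4, which also stood apart on the library axis. The 4 Spry2 values at 8 h in STM2457 lay between 111 and 115, so this gap is small in size.

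Klf2 was the listed pathway gene whose course over the chase differed between treatments by the interaction test (adjusted p = 2.14e-05, edgeR). Its log2 change from 0 to 12 h was -1.26 ± 0.14 in DMSO and -0.26 ± 0.14 in STM2457.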

How the results depend on the processing

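Under the alternatives, 148 of 160 counts of the 9 genes called were within 1.5 times the reported one. The count at single time points (1, Dusp4 at 5.3 h) was 0 with the library axis as a covariate and 0 without the 12 libraries, and 0 to 2 when 1 replicate was left out. With 1 replicate left out, the count for change over the chase ranged from 3 to 6 in DMSO (5 with all, 3 without DMSO 2 or 3) and from 2 to 5 in STM2457 (4 with all, 2 without STM2457 2 or 4), and the count between treatments from 2 to 3. These counts of the 9 genes are given without the share of all genes called in the same setting. The number called among all genes moved as well, from 1860 to 4141 over the chase in DMSO and from 817 to 3717 in STM2457. DESeq2 gave 7 of the 9 genes over the chase in STM2457. The cause was not tested.

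Estimates that changed sign were all far from the threshold. Between treatments, Egr1 ranged from -0.01 (without STM2457 replicate 1) to 0.42 with 1 replicate left out, and Fgfr1 from -0.01 (without DMSO 1 or STM2457 2) to 0.04, with -0.00043 by total reads. Spry2 from 0 to 12 h in STM2457 was 0.01 by total reads. Half-life differences with 1 replicate left out ranged from -0.07 (without DMSO 1) to 0.33 for Spry2, and from -0.33 to 0.03 for Spred1 (0.0012 and 0.03 without DMSO 3 or 4). Those for the loss of conversions ranged from -0.18 to 0.02 for Dusp6 (without DMSO 2), from -0.22 to 0.02 for Spred1 (0.00022 and 0.02 without DMSO 4 or STM2457 3) and from -0.05 (without STM2457 4) to 0.52 for Etv4. With background taken off, Dusp6 gave 0.72 and Spred1 0.38, and without the 12 libraries Dusp6 gave 0.06. The cause was not tested. That test called 17 genes of all with background taken off, 3 with overall conversion in the offset and 4 without the 12 libraries, and 0 of the 9 genes in any setting. Half-lives without limits gave 11 genes of all.

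Replicate numbers did not pair the libraries: of 35 correlations of deviations between same-numbered libraries, 1 was over 0.1, and the median was 0.003. With the number as a block, calls were 3 between treatments, 1 at single time points, 5 over the chase in DMSO and 5 in STM2457 (Dusp4 lost, Spry4 and Fgfr1 gained), and Fgfr1 from 0 to 12 h passed at 0.37 in DMSO and 0.41 in STM2457 (adjusted p = 0.00931 and 0.00824, edgeR). Over all alternatives, the genes called among all tested numbered 2705 to 3582 between treatments, 1860 to 4141 over the chase in DMSO and 817 to 3717 in STM2457. Depth limits Egr1, Dusp4 and Spry4 most, with 464, 2031 and 1422 reads over all libraries.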
